A study of Homo sapiens and Mus musculus with 16 samples.

Results

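CT26, a mouse colon carcinoma line, was compared as wild type cells and as cells in which Pd-l1 had been knocked out, and the 19 autosomes were read in windows of 10 Mb. Each gene was placed by the start of its locus in the deposited mm10 table, and a window was kept when it held at least 5 genes with an FPKM (fragments scaled to transcript length and library size) of at least 1 in at least 4 of the 8 libraries. This left 250 windows of the 535 that the same rule keeps over both cell lines of the study, CT26 and the human line MDA-MB-231. They held 10974 of the 11342 tested genes, from 5 to 165 in a window with a median of 34.5. The value of a window is the median over its genes of the knockout minus wild type difference in log2(FPKM + 1), less the median of all tested genes, which was -0.06. A gene value is the same difference for 1 gene. WT1 to WT4 and KO1 to KO4 are the libraries as the labels number them, and values by library are given in that order.

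The wild type and knockout groups had 4 total RNA libraries each. The knockout was made with CRISPR delivered by lentivirus, per the labels' protocols, and cells of both groups grew in the same medium. The labels do not say if the knockout is a pool or 1 clone, if the wild type cells carried a control vector, or if a group's libraries were grown as separate cultures. All p-values therefore refer to the spread among these 8 libraries alone, and that spread may be technical.

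Tumour cell lines commonly carry chromosomes in abnormal numbers and rearranged chromosome arms. Sublines of a tumour line can differ in these, and transcript levels of the genes on a chromosome tend to follow its number of copies, with some genes buffered. A regional shift in RNA can also come from regulation of neighbouring genes, and RNA alone does not separate the sources. DNA was not measured in these libraries, and the source of each shift below was not tested. In bulk RNA, fewer cells of a kind and less RNA per cell cannot be told apart.

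Cd274 (ENSMUSG00000016496, mm10 chromosome 19, 29367455 to 29388095) encodes Pd-l1, the surface protein that binds PD-1 on T cells. It was at 1.504, 1.49, 1.43 and 1.23 FPKM in the wild type and at 0.548, 0.445, 0.569 and 0.543 FPKM in the knockout, so the groups did not overlap. The knockout mean was 37.2% of the wild type mean. Cd274 reached 1 FPKM in the wild type libraries only and passed the filter through them, so no test is given for it. Depth relative to WT1 was 0.799 to 1.14 for wild type libraries, and 0.926 to 2.49 for knockout libraries, of which KO1 was the deepest. Of 8 epithelial markers only Krt18 was above 2 FPKM, at 30.4 to 34.8, and Epcam was listed at 0 in every library. All 6 leukocyte and all 3 endothelial markers stayed under 0.1 FPKM. The summed level of 5 fibroblast and muscle markers was 271 to 274 FPKM for wild type and 309 to 329 FPKM for knockout libraries, with Acta2 at or near 0. Col1a2 made up most of it, at 243 to 246 FPKM in wild type and 288 to 306 FPKM in knockout libraries. Col1a1 was lower in the knockout, at 20.2 to 22.8 FPKM in wild type and 11.2 to 14.2 FPKM in knockout libraries, and so was Pdgfrb, at 6.68 to 7.20 FPKM in wild type and 5.19 to 6.24 FPKM in knockout libraries. Cdx2, an intestinal factor, was at 0.0258 to 0.0629 FPKM in wild type and 0.876 to 1.045 FPKM in knockout libraries. The part of these markers and of depth in the regional results was not tested.

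Most windows differed little between the groups, and a minority moved far. Of the 250 windows, 134 had a value within 0.1 of 0. In the knockout 50 windows were higher (20%) and 32 lower (12.8%), by limma on window scores with an adjusted p under 0.05 and a value of at least 0.2 away from 0. The score of a window in a library is the median over its genes of log2(FPKM + 1) less the gene's mean over the 8 libraries, less the same median over all genes. Values ran from -0.51 to 0.69, with an SD of 0.24 over windows, and the standard error of a window's score difference had a median of 0.018. By adjusted p alone 73 windows were higher and 95 lower, and 157 had groups that did not overlap. The groups of 81 of the 82 called windows did not overlap. The exception was 150 to 160 Mb of chromosome 5, with 5 genes, a value of -0.22 and a limma adjusted p of 0.027. The other window with exactly 5 genes, 90 to 100 Mb of chromosome 17, was called higher at 0.25 although none of its genes passed the test singly. Just outside the rule, the windows with 4 and 3 genes had values of 0.04, 0.26, 0.38 and -0.08.

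**Figure D1:**
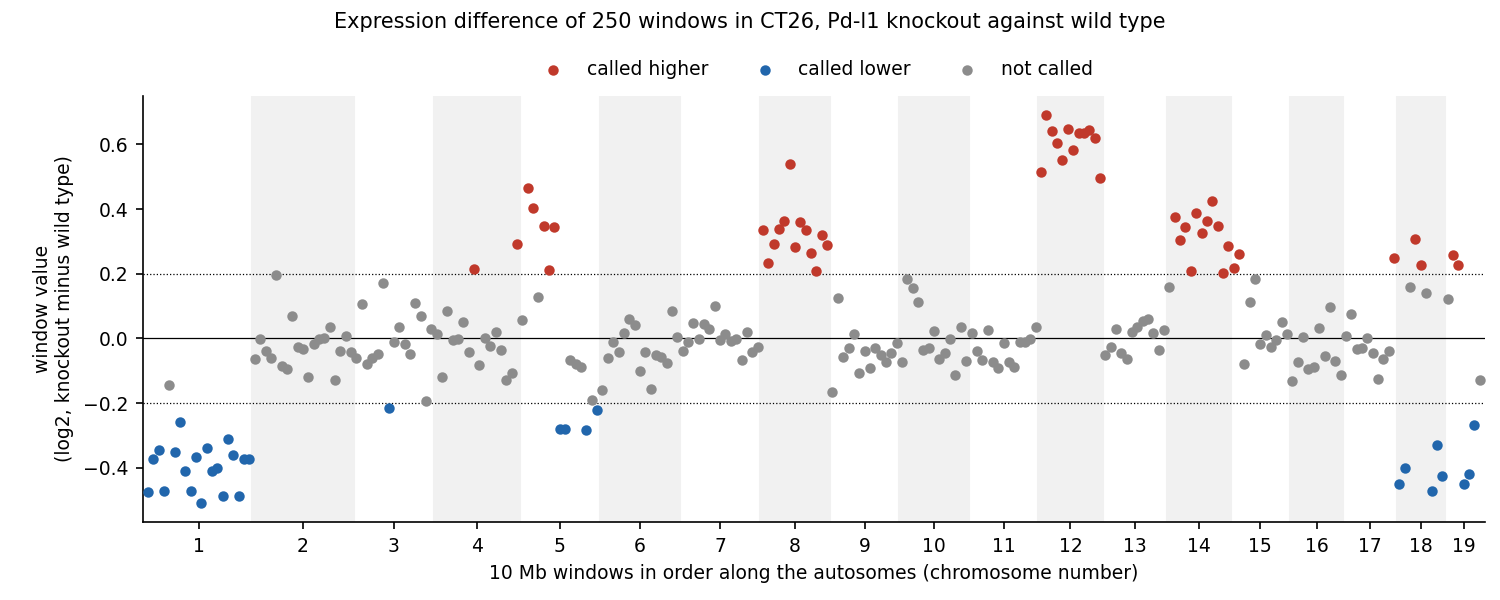
Value of each of the 250 windows (log2, knockout minus wild type, less the all-gene median) in order along chromosomes 1 to 19. Red and blue points are called higher and lower, dotted lines mark 0.2 and -0.2. Chromosomes 8, 12 and 14 lie almost wholly above the upper line and chromosome 1 almost wholly below the lower one, and chromosomes 5, 18 and 19 step from one side of 0 to the other.

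Called windows were gathered on few chromosomes. Chromosomes 1, 8, 12 and 14 held 55 of the 82, and chromosomes 5, 18 and 19 held 21 more. The remaining 6 were single or paired windows. They comprised the last window of chromosome 4 at 0.29, 70 to 80 Mb of chromosome 4 at 0.21 with 7 genes, and 70 to 80 Mb of chromosome 3 at -0.21 with 12 genes. The others were the first 2 kept windows of chromosome 15 at 0.22 and 0.26 and the last window of chromosome 17. No window was called on chromosomes 2, 6, 7, 9, 10, 11, 13 or 16. Chromosome X, which is outside the rule, had a median gene value of -0.03 over 337 genes.

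Chromosome 12 was the most raised chromosome, from end to end. All 12 of its windows were called higher, with values from 0.50 to 0.69, and 93.8% of its 416 tested genes lay above the all-gene median. Its library scores were -0.30, -0.30, -0.31 and -0.32 in the wild type and 0.30, 0.30, 0.31 and 0.30 in the knockout. No library came near the other group. The score difference was 0.61 ± 0.0053 (SE, limma adjusted p = 8.29e-25). Tested in the same way, 3 of the 19 autosomes were called higher (15.8%) and 1 lower (5.26%), at an adjusted p under 0.05 and a score difference of at least 0.1. By adjusted p alone further autosomes passed, such as chromosome 2 with a score difference of -0.043 (limma adjusted p = 4.94e-07). The size limit therefore decided many of the calls. Over its 250 genes with a mean of at least 10 FPKM, where the pseudocount of 1 matters little, the median ratio of knockout to wild type was 1.59.

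The 10 highest windows of the genome were all on chromosome 12. The highest was 10 to 20 Mb, with 18 genes and a value of 0.69 ± 0.022 (limma SE of the score difference, adjusted p = 7.17e-10). Its scores were -0.33, -0.32, -0.37 and -0.42 in the wild type and 0.34, 0.32, 0.35 and 0.33 in the knockout. The first and last windows of the chromosome had lower values, 0.51 and 0.50. Single genes gave 78.8% called higher and 1.68% lower on the chromosome, against 22.3% higher and 33.5% lower among all 11342 tested genes (limma, adjusted p under 0.05).

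The most abundant genes of chromosome 12 moved by about the amount of the chromosome. Hsp90aa1, the stress-inducible cytosolic Hsp90, was at 1242, 1249, 1231 and 1292 FPKM in the wild type and at 1806, 1808, 1788 and 1821 FPKM in the knockout. The groups lay far apart, and the gene value was 0.59. Rps29 and Rps7, proteins of the small ribosomal subunit, had gene values of 0.58 and 0.80. The largest rise was that of Fos, a subunit of the AP-1 transcription factor and an immediate early gene. It went from 0.393, 0.778, 0.656 and 0.476 FPKM to 12.1, 12.9, 14.4 and 17.9 FPKM. Fos reached 1 FPKM in knockout libraries only and passed the filter through them, so its rise is partly fixed by the filter. Its gene value of 3.33 was far beyond that of any window. The largest fall was that of Tmem121, a membrane protein, from 6.88 ± 0.301 to 1.84 ± 0.283 FPKM (SD, n = 4 per group), so single genes on a raised chromosome also fell.

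Chromosome 1 was lower along its whole length. Of its 20 windows 19 were called lower, and 15.5% of its 658 genes lay above the all-gene median. Scores were 0.20, 0.20, 0.19 and 0.19 in the wild type and -0.20, -0.19, -0.19 and -0.20 in the knockout, and the groups did not overlap. The score difference was -0.39 ± 0.0049 (SE, limma adjusted p = 2.14e-22), and the median ratio over 385 genes of at least 10 FPKM was 0.735. The lowest window of the genome was at 100 to 110 Mb with a value of -0.51, and all 9 of its genes fell. Windows at 140 to 150 Mb and 170 to 180 Mb followed, both at -0.49. The window at 40 to 50 Mb was not called, with a value of -0.14 over 21 genes, of which 4 rose and 11 fell.

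Among abundant genes of chromosome 1, Ptma, which encodes prothymosin alpha, and Rpl7, of the large ribosomal subunit, had gene values of -0.19 and -0.21. Eef1b2, a subunit of the translation elongation factor 1 complex, went the other way at 0.25. The largest rise was that of Col3a1, the chain of type III collagen. It was at 14.5, 15.8, 13.7 and 14.2 FPKM in the wild type and at 77.0, 65.6, 82.6 and 66.5 FPKM in the knockout. The largest fall was that of Klhl30, from 6.64 ± 0.417 to 0.512 ± 0.0919 FPKM (SD, n = 4 per group). Klhl30 reached 1 FPKM in wild type libraries only and passed the filter through them, so its fall is partly fixed by the filter. Neither group overlapped with the other for these genes.

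Chromosomes 8 and 14 rose by a like amount, less than chromosome 12. All 13 windows of chromosome 8 were called higher, with values from 0.21 to 0.54, and 87.0% of its 561 genes lay above the all-gene median. Its scores were -0.16, -0.16, -0.17 and -0.16 in the wild type and 0.16, 0.15, 0.16 and 0.15 in the knockout. The score difference was 0.32 ± 0.0053 (SE, limma adjusted p = 1.79e-20), and the median ratio over 355 genes of at least 10 FPKM was 1.28. On chromosome 14, 11 of 12 windows were called higher, with 88.6% of 385 genes above the all-gene median. Its scores were -0.17, -0.19, -0.17 and -0.15 in the wild type and 0.15, 0.18, 0.16 and 0.17 in the knockout. The score difference was 0.33 ± 0.0068 (SE, limma adjusted p = 3.92e-19), and the median ratio over 247 genes was 1.30. Only its first window, with 8 genes, was not called, at 0.16. Whether the shifts of the 2 chromosomes differ from each other was not tested.

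Among abundant genes of chromosome 8, Mt2, a metallothionein, had a gene value of 0.21. Nrp1, a receptor for semaphorins and VEGF, rose most, from 1.43, 1.39, 1.47 and 1.55 FPKM to 15.5, 14.9, 15.3 and 14.6 FPKM. Tlr3, a sensor of double-stranded RNA, fell most, from 10.2 ± 0.690 to 3.67 ± 0.527 FPKM (SD, n = 4 per group). On chromosome 14 Tpt1, the translationally controlled tumour protein, and Rps24 had gene values of 0.67 and 0.53. Psme2, an interferon-induced subunit of the proteasome activator PA28, was the exception among abundant genes at -0.29. Anxa8, an annexin, rose most (gene value 2.29), and Phf11d fell most (-1.79).

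**Figure D2:**
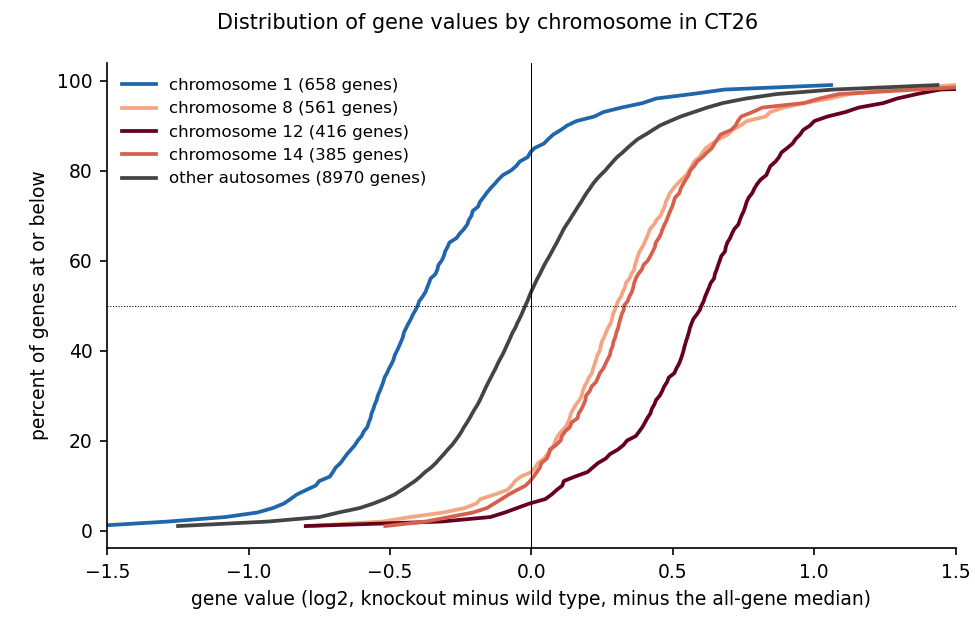
Share of genes at or below each gene value (x axis, log2, less the all-gene median) on chromosomes 1, 8, 12 and 14 and on the other autosomes. The curves of the 4 chromosomes are moved sideways over most of their height, with medians of -0.40, 0.30, 0.60 and 0.33, against -0.02 for the other autosomes.

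Chromosomes 5, 18 and 19 had medians near 0 as wholes (-0.02 each) because parts of them moved in opposite directions. To find where, the genes of each autosome were put in order and split where the sum of absolute deviations from segment medians dropped most, with at least 30 genes on each side and a step of at least 0.15. This gave 8 steps on 4 chromosomes. Since the values chose the steps, they are described without a test, and the distance between the groups in a segment is fixed by that choice. The location was repeated with each knockout library against the wild type mean, and under 17 other settings. The repeats by knockout library share the wild type libraries and are not independent. A step counted as found when a split lay within 10 Mb of it on the same chromosome.

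On chromosome 19 the step fell between Plgrkt and Cd274, the targeted gene, whose own low value takes part in placing it. Upstream, 147 genes from Malat1 to Plgrkt had a median gene value of 0.27, and from Cd274 to the last tested gene 165 genes had a median of -0.40. Scores of the upstream segment were -0.16, -0.16, -0.16 and -0.12 in the wild type and 0.14, 0.15, 0.12 and 0.14 in the knockout. Those of the downstream segment were 0.21, 0.20, 0.21 and 0.19, and -0.21, -0.19, -0.22 and -0.20. The median ratio of knockout to wild type over genes of at least 10 FPKM was 1.27 upstream (115 genes) and 0.75 downstream (104 genes). Of the downstream genes 86.7% lay below the all-gene median and 78.8% were called lower. All 4 knockout libraries taken singly put the step at 29.37 Mb, and it was found under 17 of 17 settings, between 29.4 and 29.5 Mb. Without Cd274 in the table, an alternative added after the data had been seen, the first gene beyond the step was Ric1, the next tested gene after Cd274. As the target, and through the filter, Cd274 had its fall fixed in advance. The other genes place the step only between Plgrkt and Ric1, which starts 119 kb beyond the start of Cd274.

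Plgrkt, a plasminogen receptor, is the last tested gene before the step, and it ends 65 bp before Cd274 starts. It was at 33.5, 32.3, 33.9 and 36.2 FPKM in the wild type and at 40.8, 42.5, 42.2 and 42.7 FPKM in the knockout, with a log2 fold change of 0.30 ± 0.041 (SE, limma adjusted p = 3.39e-04). Jak2, a kinase of cytokine receptor signalling, starts 116 kb before Cd274 and was at 13.2, 13.2, 14.1 and 13.6 FPKM against 18.5, 18.2, 18.9 and 19.3 FPKM. Both genes were higher in every knockout library than in any wild type library. The other 3 tested genes within 1.5 Mb upstream, Rcl1, Cdc37l1 and Glis3, had gene values of 0.11, 0.26 and 0.29 and did not pass the test.

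Beyond Cd274 the direction changed with the next gene. Ric1, part of an exchange factor for Rab6 and 119 kb away, was at 8.35, 7.41, 8.16 and 7.93 FPKM in the wild type and at 5.22, 5.31, 5.39 and 5.60 FPKM in the knockout. Ermp1, a metallopeptidase of the endoplasmic reticulum, was at 31.3, 30.1, 29.2 and 30.6 FPKM against 13.5, 13.7, 13.2 and 11.7 FPKM, with a log2 fold change of -1.16 ± 0.054 (SE). Ranbp6 and Cstf2t also fell, with gene values of -0.15 and -0.34, as did 9930021J03Rik. Uhrf2, a ubiquitin ligase, was the exception of the 6, with a gene value of 0.71, and its groups overlapped. Within 1.5 Mb, 5 of 5 genes before the step lay above the all-gene median and 5 of 6 genes beyond Cd274 below it. Over the whole segments the shares were 86.4% above it upstream and 86.7% below it downstream. The step was placed by these same values, so the counts are no separate evidence. The gene value of Cd274 itself was -0.60, on a scale that compresses differences at such low levels, so its own fall and that of the region cannot be set against each other there.

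**Figure D3:**
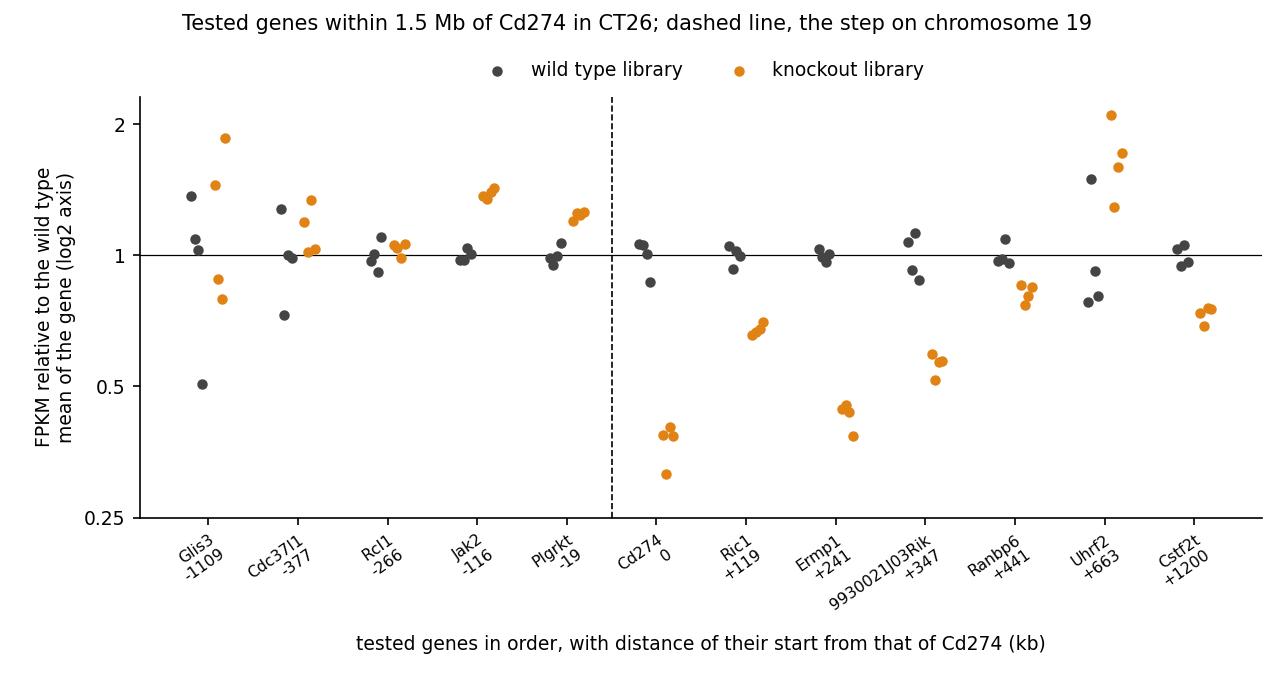
FPKM of each library divided by the wild type mean of the gene (log2 axis), for the 12 tested genes within 1.5 Mb of Cd274, in order, with the distance of their starts from that of Cd274 in kb. Left of the dashed line Jak2 and Plgrkt are higher in all 4 knockout libraries, and right of it every gene but Uhrf2 is lower in all 4.

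The windows followed the step. The window at 20 to 30 Mb, which holds both sides of it, was called higher at 0.23, and that at 30 to 40 Mb was lower at -0.45 ± 0.014 (limma SE, adjusted p = 5.06e-10). Its scores were 0.22, 0.22, 0.23 and 0.24 in the wild type and -0.22, -0.25, -0.22 and -0.22 in the knockout. The last window, with 10 genes, was at -0.13 and not called. Among abundant genes upstream, Cox8a, a subunit of cytochrome c oxidase, rose from 678 ± 26.3 to 1003 ± 19.3 FPKM and Fau, which yields a small ribosomal protein, had a gene value of 0.40. Fth1, the ferritin heavy chain, had one of -0.28 there. Downstream, Ndufb8, of respiratory complex I, and Usmg5, of the ATP synthase, had gene values of -0.58 and -0.44, and Scd2, a fatty acid desaturase, -0.10. Ifit3, an interferon-stimulated gene, fell most, from 26.9, 20.1, 24.7 and 28.2 FPKM to 4.15, 4.29, 3.53 and 5.09 FPKM, and Dusp5, a phosphatase induced by ERK signalling, rose most (gene value 1.13).

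A second step of chromosome 19 lay near its start, at Malat1 (5.80 Mb). The 79 genes before it had a median of 0.01. Their scores overlapped between the groups, -0.019 to 0.007 for wild type and -0.014 to 0.023 for knockout libraries. Malat1 and Neat1, long noncoding RNAs of the nucleus, start the raised segment, with gene values of 0.19 and 1.18, and Neat1 was called higher. This step was weaker than the one at Cd274: 1 of 4 knockout libraries showed it singly, and 14 of 17 settings did.

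Chromosome 18 was lower at both ends and higher between. The first 38 genes, up to Cdh2, had a median gene value of -0.41, the next 139, from Dsg4 to Lmnb1, 0.28, and the last 110 -0.43. Scores of the first segment were 0.21, 0.20, 0.23 and 0.17 in the wild type and -0.21, -0.16, -0.20 and -0.25 in the knockout. Those of the middle were -0.12, -0.14, -0.15 and -0.15, and 0.15, 0.13, 0.13 and 0.14, and those of the last 0.22, 0.20, 0.20 and 0.20, and -0.20, -0.22, -0.21 and -0.21. Median ratios over genes of at least 10 FPKM were 0.744, 1.24 and 0.719. The whole chromosome, at a score difference of -0.01 ± 0.0076 (SE, limma adjusted p = 0.295), showed none of this.

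The first step of chromosome 18 lay between Cdh2, which starts at 16588877, and Dsg4, at 20436175, in a stretch of 3627 kb without a tested gene. Cdh2, N-cadherin, was at 29.97, 30.3, 28.9 and 29.2 FPKM in the wild type and at 18.6, 18.8, 17.7 and 17.4 FPKM in the knockout. Dsg4, a cadherin of desmosomes, was listed at 0, 0, 0.0142 and 0.0593 FPKM in the wild type and stood at 9.07, 8.79, 8.56 and 8.46 FPKM in the knockout. The groups were far apart. Dsg4 passed the filter on low values only through the knockout libraries, so no test is given for it, and since it is at or near 0 in the wild type, no ratio. Taken singly, 3 of the 4 knockout libraries put the step at Dsg4, and KO2 put it at 15.8 Mb.

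The other step lay between Lmnb1, lamin B1, and C330018D20Rik at 56.96 Mb, within 202 kb. All 4 knockout libraries put it at this spot, and so did 17 of 17 settings. Lmnb1 was at 70.5, 75.1, 76.0 and 74.1 FPKM in the wild type and at 83.7, 88.3, 86.5 and 78.4 FPKM in the knockout. Isoc1, the fifth gene beyond, was at 25.03, 23.6, 24.9 and 25.2 FPKM against 14.5, 14.5, 14.3 and 14.1 FPKM. The groups did not overlap in either gene. Aldh7a1, an aldehyde dehydrogenase just before the step, rose from 3.32, 3.01, 2.92 and 3.74 FPKM to 18.5, 21.0, 22.2 and 23.7 FPKM, a gene value of 2.45. It shares its deposited locus with Phax, and the sources do not say how reads of overlapping genes were divided.

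Windows at the ends of chromosome 18 were among the 10 lowest of the genome, with -0.45 at 0 to 10 Mb, -0.47 at 60 to 70 Mb and -0.43 at 80 to 90 Mb. Beside the first step, the window at 10 to 20 Mb was called lower at -0.40, and that at 20 to 30 Mb was at 0.16. The window at 50 to 60 Mb, which holds genes of both sides of the other step, was at 0.14. Neither the window at 20 to 30 Mb nor that at 50 to 60 Mb was called, by size. In the first segment Snrpd1, a core protein of spliceosomal particles, and Usp14, a deubiquitinase of the proteasome, had gene values of -0.33 and -0.42, and Impact, a regulator of translation under stress, fell most (-1.16). In the middle Ndufa2, of respiratory complex I, had 0.31. Egr1, an immediate early transcription factor, rose most of all tested genes, from 8.70, 8.22, 8.76 and 8.09 FPKM to 201, 179, 234 and 206 FPKM. In the last segment the ribosomal genes Rps14 and Rpl17 had -0.29 and -0.22. Smad2, which carries TGF-beta signals, fell most, from 52.9, 56.0, 50.9 and 54.6 FPKM to 24.8, 22.9, 25.02 and 21.4 FPKM.

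**Figure D4:**
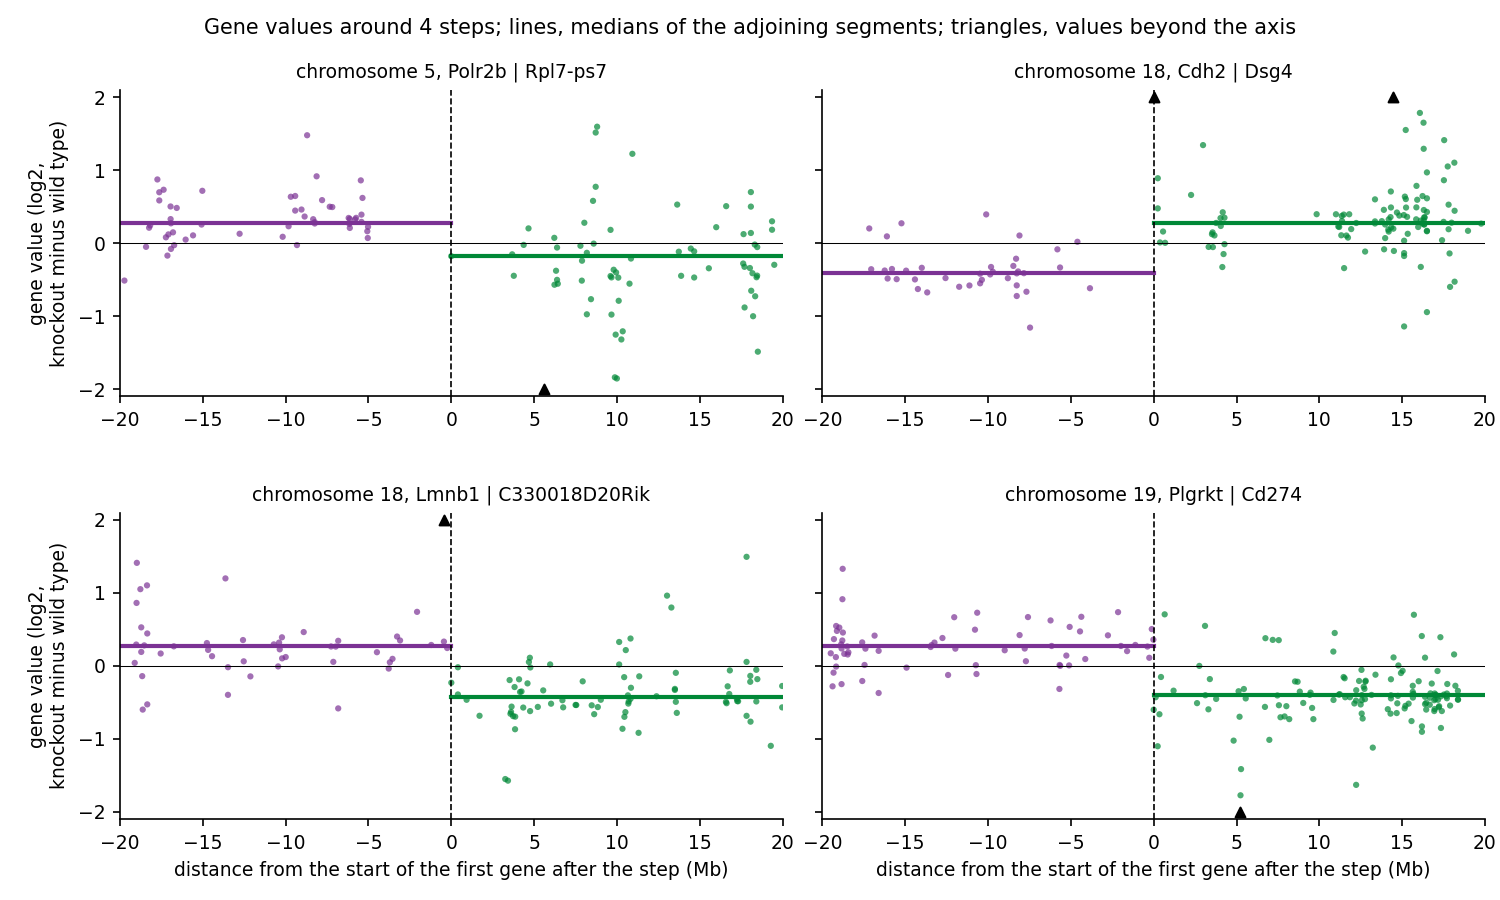
Gene values (log2, knockout minus wild type, less the all-gene median) within 20 Mb of 4 steps, by distance from the start of the first gene beyond the step in Mb. Each point is a gene, thick lines are the medians of the adjoining segments, and triangles are genes beyond the axis. The points change level at the dashed lines, from 0.27 to -0.17 on chromosome 5, from -0.41 to 0.28 and from 0.28 to -0.43 on chromosome 18, and from 0.27 to -0.40 on chromosome 19.

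Chromosome 5 was higher over much of its first part and lower over the rest. The clearest step lay between Polr2b, a subunit of RNA polymerase II, and Rpl7-ps7 at 82.34 Mb, after 4929 kb without a tested gene. It was found under 17 of 17 settings, between 82.3 and 86.0 Mb, and in all 4 knockout libraries, at 77.3 or 82.3 Mb. Before it 131 genes had a median of 0.27 and beyond it 518 genes had -0.17. Scores were -0.14, -0.11, -0.16 and -0.14 against 0.16, 0.14, 0.14 and 0.14 before the step. Beyond it they were 0.08, 0.09, 0.08 and 0.10 against -0.08, -0.09, -0.09 and -0.09, wild type first in both cases. The lower part was less even than those of chromosomes 18 and 19: 53.9% of its genes were called lower and 10.0% higher, and its windows ran from -0.07 to -0.28, of which 4 were called. The windows on the 2 sides of the step were 0.35 at 70 to 80 Mb and -0.28 at 80 to 90 Mb.

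The highest stretch of chromosome 5 ran from Dmtf1 at 9.10 Mb to Ywhah at 33.0 Mb, with a median of 0.47 over 100 genes, of which 96.0% lay above the all-gene median. Its scores were -0.25, -0.23, -0.26 and -0.25 in the wild type and 0.23, 0.25, 0.23 and 0.24 in the knockout. The step into it was found in 3 of 4 knockout libraries singly and under 15 of 17 settings. The step out of it, from 0.47 to 0.27, was found in no single knockout library and under 5 of 17 settings, and it was the least steady of the 8 steps. Ywhah, the 14-3-3 eta protein, rose from 108 ± 9.60 to 176 ± 7.43 FPKM and Mrpl33, a mitochondrial ribosomal protein, from 104 ± 9.39 to 186 ± 8.61 FPKM (SD, n = 4 per group). Rpl9, in the next segment, rose from 1053 ± 62.0 to 1431 ± 33.5 FPKM. Beyond 82 Mb Actb, cytoplasmic actin, and Ran, the GTPase of nuclear transport, had gene values of -0.24 and -0.21, whereas Spp1, osteopontin, rose (0.92) and Csn3, kappa-casein, fell most (-2.01).

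Chromosome 4 had a single step near its end, between H6pd and Gm37795 at 150.1 Mb. The 619 genes before it had a median of -0.04, and the 64 beyond it 0.29. Scores of the end were -0.13, -0.20, -0.14 and -0.10 in the wild type and 0.11, 0.16, 0.10 and 0.15 in the knockout. The groups did not overlap. The step was found in all 4 knockout libraries, between 149.8 and 152.4 Mb, and under 16 of 17 settings. Eno1, the glycolytic enolase, and Gnb1, a G protein subunit, lie in the end and had gene values of 0.37 and 0.42. Errfi1, a feedback inhibitor of the EGF receptor, rose most there (1.09). The best split of chromosome 15, at 34.5 Mb with 0.22 before and 0.01 beyond, fell short of the limit set for a step, and those of the other 14 autosomes without a step fell further short.

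**Figure D5:**
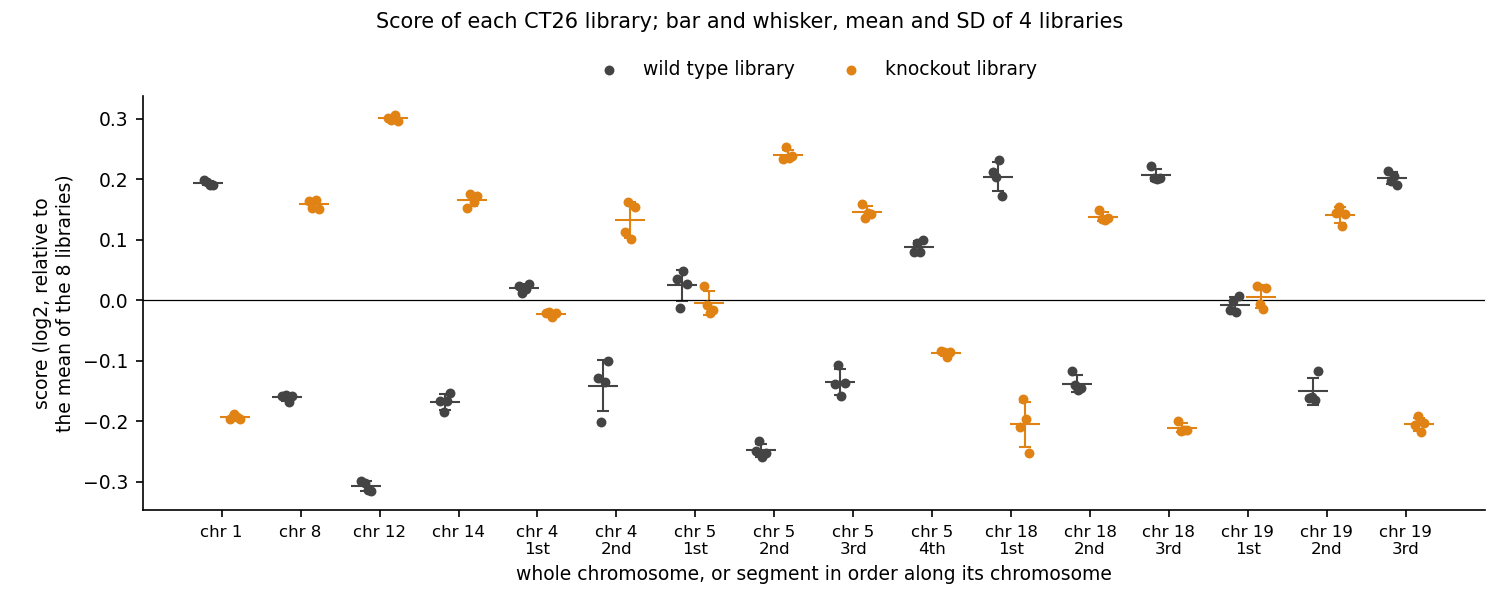
Score of each library (log2, relative to the mean of the 8 libraries) for chromosomes 1, 8, 12 and 14 and for each segment of chromosomes 4, 5, 18 and 19, in order. Points are libraries, the bar and whiskers are the mean and SD of 4 libraries. The groups overlap in the first segments of chromosomes 5 and 19 and in no other segment shown, a separation that the choice of the segments by these values fixes in part.

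Genes too low for the rule gave a measure of the same windows from other genes. The 2656 genes with a mean of 0.2 to 1 FPKM were scored in the 200 windows with at least 5 of them, with a pseudocount of 0.1. By limma with an adjusted p under 0.05, 6 windows were higher (3%) and 15 lower (7.5%). Of the windows called higher by the tested genes 39 could be compared, and the low-level genes had the same sign in 33. Of those called lower it was 14 of 21, and of those not called 71 of 139. The low-level genes called 4 of the 39 higher and 6 of the 21 lower. None of the 39 was called in the opposite direction by them, nor was any of the 21. Of the 139 windows not called by the tested genes, they called 2 higher and 9 lower. The median value of the low-level genes was 0.26 in the first set, -0.18 in the second and -0.0024 in the third. Across 199 windows with both values Pearson's r was 0.42 and Spearman's rho 0.37, where the points share libraries and normalization. The window beyond Cd274, 30 to 40 Mb of chromosome 19, was lower by its 6 low-level genes too, at -0.84 (limma adjusted p = 0.0454). The window at 30 to 40 Mb of chromosome 18 was higher, at 0.86 (limma adjusted p = 0.00229), and so was that at 80 to 90 Mb of chromosome 12, at 0.57 (limma adjusted p = 0.0149). These counts rest on few genes per window, and leaving out WT1, WT3, KO1, KO3 or KO4 took the total of 21 called windows to between 12 and 13.

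Called windows held 26.0% of tested genes and 33.7% of all called genes. Windows called higher held 16.3% of tested genes and 46.3% of the genes called higher. Windows called lower held 9.76% of tested genes and 21.2% of the genes called lower. Of the 2951 genes in called windows 1976 (67.0%) were called in the direction of their window and 158 (5.35%) against it. Of 437 genes called with a change of at least 2-fold, 155 (35.5%) lay in called windows, against that 26.0% of tested genes. A window's value is made from the same genes, so these shares describe the table and are no separate evidence.

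Genes of large complexes and of enzyme families moved in different directions in windows called higher and in windows called lower. The value of a window is made from such genes too, and whether position divides them was not tested. Constitutive proteasome subunits, the parts of the standard protein-degrading particle, numbered 32 (values below are means ± SD, n = 4 per group). In windows called higher 6 of 8 rose and none fell, such as Psmc1 from 174 ± 7.71 to 256 ± 14.6 FPKM and Psma6 from 204 ± 12.5 to 283 ± 9.55 FPKM, both on chromosome 12. The 1 subunit in a window called lower, Psmd1 on chromosome 1, fell from 111 ± 3.21 to 80.9 ± 3.41 FPKM. In windows not called 1 of 23 rose and 14 fell. Cytosolic aminoacyl-tRNA synthetases, which charge tRNAs, rose in 5 of 7 cases in windows called higher and fell in 4 of 4 in windows called lower. Windows not called held 12 of them, of which none rose and 7 fell (58.3%). Eprs on chromosome 1 fell from 106 ± 1.92 to 63.9 ± 1.58 FPKM and Farsa on chromosome 8 rose from 64.5 ± 3.30 to 81.7 ± 0.635 FPKM. Farsa and Farsb, the subunits of 1 enzyme, went apart, with gene values of 0.40 and -0.30. Among all tested genes, 63.6% rose and 5.37% fell in windows called higher, 5.33% rose and 72.6% fell in windows called lower, and 15.5% rose and 34.3% fell in windows not called. These shares are the background for the counts of each list.

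Mitochondrial ribosomal proteins and DNA replication genes also rose in windows called higher and fell in windows called lower, as did most tested genes there (63.6% and 72.6%). Of the former, 7 of 8 rose in windows called higher, none fell, and 6 of 6 fell in windows called lower. Windows not called held 63 of them, of which 4 rose and 36 fell (57.1%). Of all tested genes there, 15.5% rose and 34.3% fell. Mrpl34 on chromosome 8 went from 28.6 ± 1.5 to 60.8 ± 1.60 FPKM and Mrpl15 on chromosome 1 from 138 ± 7.43 to 85.6 ± 3.40 FPKM. Of DNA replication genes, 4 of 7 (57.1%) rose in windows called higher, a share below that of all tested genes, and 6 of 6 fell in windows called lower. Windows not called held 19 of them, of which 2 rose and 9 fell (47.4%). The replicative helicase was split, with Mcm3 and Mcm6 on chromosome 1 at gene values of -0.58 and -0.67, Mcm7 on chromosome 5 at -0.21 and Mcm5 on chromosome 8 at 0.33. All 8 subunits of the TCP1 chaperonin, which folds actin and tubulin, lay outside called windows, and 3 of them (37.5%) fell and none rose, near the 34.3% of all tested genes that fell in windows not called.

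In the lists of induced genes, called members also went against their windows. Of interferon-stimulated genes, 3 of 6 fell in windows called higher and 2 rose, while 7 of 7 fell in windows called lower and 38 of 43 in the rest. Of all tested genes 5.37% fell in windows called higher, 72.6% in windows called lower and 34.3% in windows not called. Rsad2 and Cmpk2, antiviral genes of chromosome 12, had gene values of -1.09 and -1.03 there, whereas Ifi27 on the same chromosome rose from 76.5 ± 5.61 to 191 ± 8.21 FPKM. Immediate early genes rose in 11 of 11 cases in windows called higher and in 3 of 3 in windows called lower. In the rest 18 of 22 rose. Of all tested genes 63.6%, 5.33% and 15.5% rose in these windows, respectively. Fos and Egr3, in windows called higher, reached 1 FPKM in knockout libraries only and passed the filter through them. Their rise is thus partly fixed by the filter. Btg2, an antiproliferative gene on chromosome 1, rose from 2.61 ± 0.245 to 14.1 ± 0.618 FPKM. Of 25 MHC class I genes tested, 21 fell and 1 rose. In windows not called 19 of 22 fell and none rose, and 3 lay in windows called higher, of which 1 rose and 2 fell. Calr, a chaperone of MHC class I loading, rose from 524 ± 26.9 to 846 ± 28.8 FPKM, and Psmb10 and Nlrc5 fell. Nlrc5 reached 1 FPKM in wild type libraries only and passed the filter through them, so its fall is partly fixed by the filter. Whether a list differs from other genes of its windows was not tested.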

How the data were processed

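The samples were 8 total RNA libraries of CT26, 4 wild type and 4 knockout by their titles. Per the submitters' processing notes, bcl2fastq 2.18, STAR 2.5.4a, Cufflinks 2.2.1 and Cuffdiff were used with mm10. The annotation, strand handling and settings were not stated there. The authors deposited 1 value in FPKM per gene and library. Among them, 210 genes had a status of too much data and were at 0 throughout, 27 symbols had become dates, and 6275 tested genes (55.3%) shared their locus with another listed gene, so neighbours within a window are not independent measurements.

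Values were taken as log2(FPKM + 1), which understates changes of low genes. Genes with an FPKM of at least 1 in at least 4 libraries were tested. A gene that reached 1 FPKM in 1 group only passed through that group, so its direction is partly fixed by the filter. Counts of called genes include such genes. Genes, windows and chromosomes were compared with limma 3.58.1 under R 4.3.3 (two-sided, group as the only term, Benjamini-Hochberg over all genes, all 250 windows or all 19 autosomes), with a mean-variance trend for genes. Steps needed n × ln(cost before / cost after) above 3 × ln(n). Deposited starts count from 0, so 1 was added. Depth was read from the smallest FPKM steps and is relative to WT1. The programs were tested on simulated data. Steps were found in Python 3.11.15 (numpy 2.4.6 and pandas 2.3.3), and plots were drawn with matplotlib 3.10.9.

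The windows, gene lists and tests were chosen with earlier results of these data known. Named windows were the 10 highest and 10 lowest called and those beside steps. Named genes were Cd274, genes beside steps, per segment or called chromosome the 3 most abundant genes, the largest rise and the largest fall among called genes whose groups did not overlap (5 FPKM or more in 1 group), and up to 4 list members. Which of these are described was settled with the values in view, and so was the choice of Mcm3, Mcm5, Mcm6, Mcm7 and Farsb. Some members of these sets are not reported here.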

Additional observations from a re-analysis of the deposited data

Results flagged for a closer look

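The spread within groups of 4 libraries was checked for 74 results (19 chromosome scores, segment scores, named windows and the tested genes near Cd274). In 10 of 148 groups (6.76%) 1 library stood apart by Dixon's ratio, where chance flags about 1 in 20. Wild type scores that stood apart were those of chromosome 16 (WT2, 0.0096), chromosome 17 (WT4, 0.0249), the last segment of chromosome 18 (WT1, 0.22), the segment before Cd274 (WT4, -0.12) and 10 to 20 Mb of chromosome 18 (WT4, 0.11). Knockout scores that stood apart were those of the middle and last segments of chromosome 18 (KO1, 0.15 and -0.20) and of 100 to 110 Mb of chromosome 12 (KO4, 0.33). The others were 30 to 40 Mb of chromosome 19 (KO2, -0.25) and 0 to 10 Mb of chromosome 5 (KO1, 0.026). The largest gap was that of 10 to 20 Mb of chromosome 18, where the other wild type libraries were at 0.21 to 0.23. KO1, the deepest library, was the one apart in 3 of the 5 knockout cases. Chromosomes 16 and 17 and the window of chromosome 5 were not called. The window of chromosome 5 aside, all of these scores stayed outside the range of the other group.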

How the results depend on the processing

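Without a filter, when every gene above 0 in any library enters, 1 window was higher and 3 lower, and 1 chromosome (12) was higher and 0 lower. Of the 4 called chromosomes, only chromosome 12 kept its call under all 18 alternatives, and 1, 8 and 14 kept theirs under 17. Windows of 5 Mb gave 87 higher and 60 lower, and windows of 20 Mb gave 25 and 17, since their number changes with their size. Under the other pseudocounts, scalings, filters and gene minimums, with windows moved by 5 Mb, without genes that share a locus and without each library in turn, 35 to 52 windows were higher and 27 to 36 lower. The first window of chromosome 5 (0.06, not called) was at -0.036 with the stricter filter and at -0.038 with the mean in place of the median. Doubling the penalty for a split left 4 steps, those at Polr2b, Dsg4, Lmnb1 and Cd274, and the other settings gave 6 to 11. Windows called by low-level genes numbered 7 with a mean of 0.1 to 1 FPKM and 12 to 18 without 1 library, against 21. The cause was not tested.

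Same-numbered libraries of the groups deviated together weakly over genes (r of 0.027 to 0.078), where every wild type library correlated best with its own number. Over windows r was -0.081 to 0.052, with no common sign. With a replicate block 50 windows were higher and 32 lower, 3 chromosomes higher and 1 lower, and 14 windows were called by low-level genes. The single-gene calls were 6032 with the block and 6328 without. DNA was not measured, separate cultures are not documented, no mouse sequence was used, and windows of few genes rest on few values. Depth is known only relative to WT1, so no counting error is attached to single FPKM values.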
